A study of Ipomoea batatas with 12 samples.

Results

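In the storage roots of sweetpotato (Ipomoea batatas), 25 of 225111 counted genes were found whose transcript level differed between a natural mutant and its wild type in opposite directions in the skin and in the flesh. The members were chosen by their measured values, as counts per 1000000 counts of the library (CPM). The mean CPM of the lines had to differ at least 2-fold in each tissue, with the sign of the difference inverted between skin and flesh. In each tissue the 3 mutant libraries had to lie all above or all below the 3 wild-type libraries, the higher group had to reach 3 CPM, and the lower group had to hold more than 3 counts in sum. Genes whose identifier carries the number 12 were left out, and 1 such gene met every other condition. The wild-type line M1-125 (WT) and the natural mutant derived from it (MT) were field-grown, and flesh and skin were taken 120 days after planting, under a treatment that the labels of all groups call normal. WT skin, MT skin, WT flesh and MT flesh had 3 libraries each, 12 in all. The labels speak of biological replicates without tying them to plants, so a p-value here reflects only how these samples vary, which may be technical, and MT is a single mutant line with no second mutant of its kind in the series.

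The skin of a storage root is a periderm, a corky layer of cells that seals the root and often carries its pigment, while the flesh is mostly starch-storing parenchyma threaded with vascular tissue. Sweetpotato is propagated from cuttings, so a natural mutant is kept as a clone beside the line it came from, and most of the genome is shared. It is a hexaploid, and nearly identical copies of a gene can each carry an identifier of their own. Where a gene differs between lines in opposite directions in skin and flesh, a whole root would show only the sum of both, weighted by how much RNA each tissue gives. The series title asks about regulators of skin colour, but the colour of either line is not stated in the labels. Gene names, functions and sequences for these identifiers were not at hand in the tables used here, so the members are described by identifier, level and pattern, with no role given to any of them, and neither tissue could be checked against its defining markers.

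The shallowest library, MT skin replicate 3, held 8507461 counts and the deepest, WT flesh replicate 2, held 20276417, and skin was counted less deeply than flesh. A total of 3 counts corresponded to 0.148 CPM in the deepest library and to 0.353 CPM in the shallowest. Replicates of each group differed by more than sampling noise, so none was counted as a repeat of another. These are bulk samples, in which fewer cells of a type and less RNA per cell cannot be told apart. How reads were divided among near-identical copies is uncertain for any single identifier, as is the division between overlapping genes, because the strand setting is not given in the sources used here.

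The conditions on level were met in both tissues by 30375 genes. Of these, 2.34% were at least 2-fold lower and non-overlapping in MT skin and 1.38% were so on the higher side. In flesh, 2.72% met the same fold and overlap conditions on the higher side in MT and 0.731% on the lower side. Both tissues together gave 96 genes higher in MT in each tissue, 23 lower in each, 20 lower in MT skin and higher in MT flesh, and 5 higher in MT skin and lower in MT flesh. The last pair of classes makes up the 25 members, and since these conditions are the rule itself, nothing is read from the counts. The split between the classes moved with single libraries: it was 15 and 12 without WT flesh replicate 1 and 20 and 12 without MT flesh replicate 1. Without the overlap condition 121 genes would have been taken. The smallest skin fold among the members was 2.00 and the nearest gene outside stood at 1.94, and in flesh the corresponding values were 2.01 and 1.95. The lowest higher-group mean among the members was 3.04 CPM, against 2.90 CPM for the nearest gene outside, and the smallest summed count of a lower group among the members was 21.

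**Figure D1:**
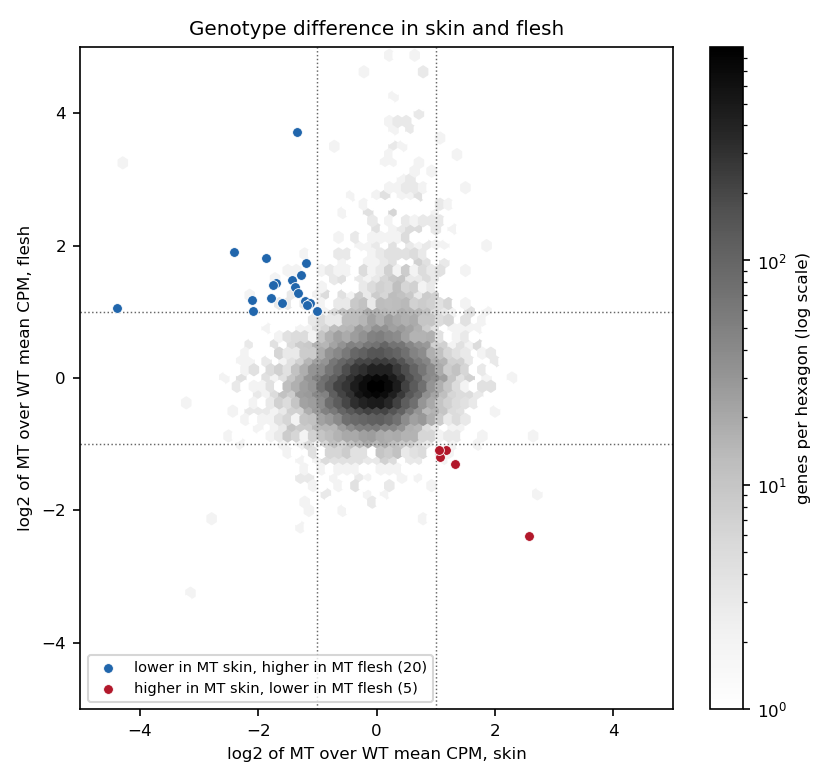
Log2 ratio of MT to WT mean CPM in skin (x axis) against that in flesh (y axis) for the genes that met the conditions on level, with members in colour, the 2-fold limits as lines, and 70 genes outside the axes not drawn. The 20 members lower in MT skin lie in the upper left and the 5 members higher in MT skin in the lower right.

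Across the class of 20, the skin level was lower in MT by 2.00 to 20.8-fold, with a median of 2.64-fold, and the flesh level was higher by 2.01 to 13.1-fold, with a median of 2.38-fold. Across the class of 5, the skin level was higher in MT by 2.08 to 5.95-fold and the flesh level was lower by 2.11 to 5.25-fold. In the edgeR fit of 80351 genes (quasi-likelihood test, Benjamini-Hochberg threshold 0.05), 13 of the 20 were called lower in MT skin, where 3.21% of all tested genes were called lower. In flesh 19 of the 20 were called higher, where the share over all tested genes was 3.75%. Scaling by library totals alone in place of TMM, edgeR's trimmed-mean scaling, changed the split of flesh calls over all tested genes from 3016 higher and 969 lower to 2414 higher and 1708 lower. Of the 5, 2 were called higher in MT skin, against 3.64% of all tested genes, and 1 was called lower in MT flesh, against 1.21%. Counted over all 25, 14 passed in both tissues in opposite directions, which 0.407% of all tested genes did, 6 passed in flesh alone, 1 in skin alone and 4 in neither. The difference between the line effects in skin and in flesh passed in 24 of the 25, against 4.55% of all tested genes in either direction. The rule had used all of these contrasts, so the calls describe the members and support nothing.

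**Figure D2:**
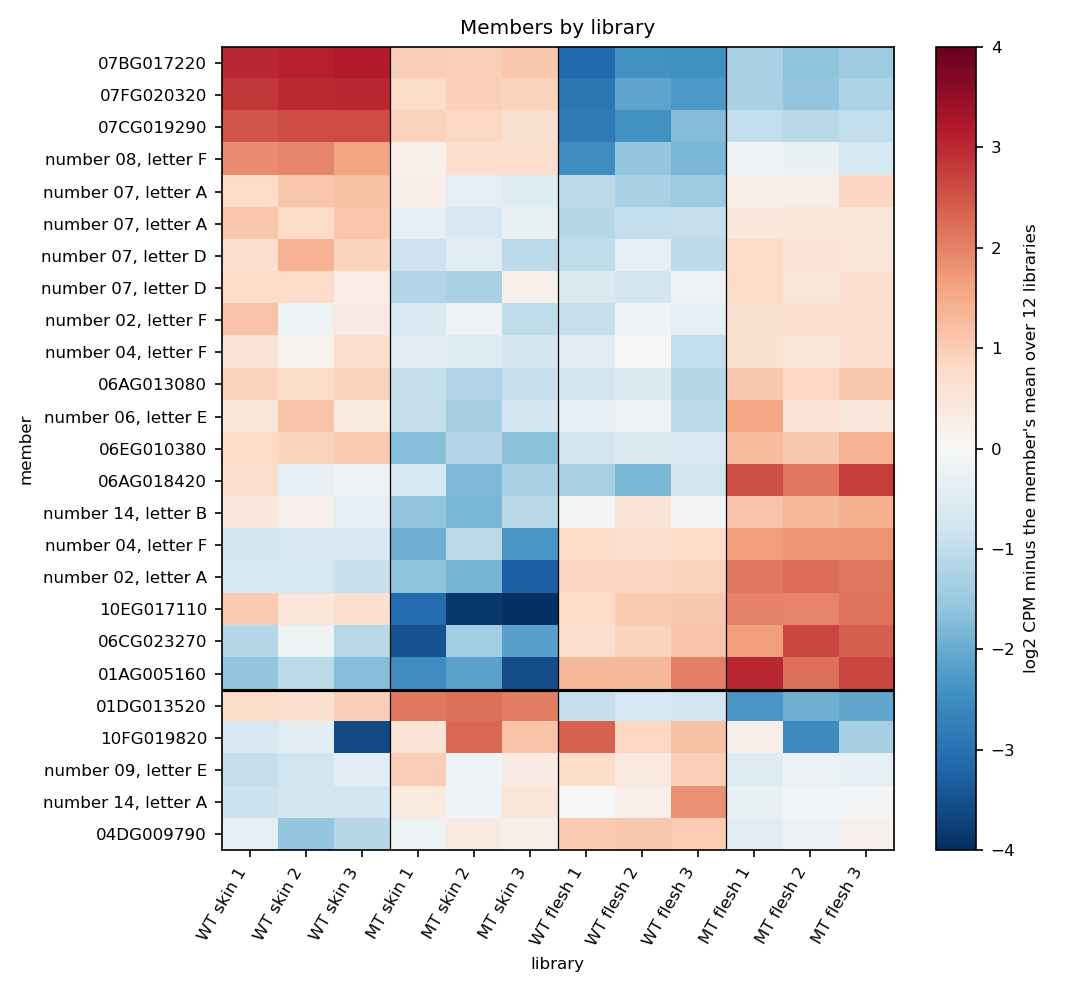
Log2 CPM of each of the 25 members (rows) in each of the 12 libraries (columns), centred on the member's mean, with the class of 20 above and the class of 5 below. In the upper block the WT skin libraries stand above the MT skin libraries and the MT flesh libraries above the WT flesh libraries, and in the lower block this is inverted.

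Ibat.Brg_v3.06EG010380 had the largest opposite difference of the class of 20 when ranked by the smaller of its folds. Its skin level was 48.3, 51.3 and 57.6 CPM in WT and 8.49, 12.2 and 8.93 CPM in MT, and its flesh level was 16.2, 18.4 and 18.2 CPM in WT and 66.9, 58.8 and 71.9 CPM in MT. The tissue with the higher level thus changed with the line: every WT skin library was above every WT flesh library, and every MT flesh library was above every MT skin library. The group means were 52.4 ± 4.72 CPM in WT skin, 9.88 ± 2.03 in MT skin, 17.6 ± 1.26 in WT flesh and 65.9 ± 6.58 in MT flesh (SD, n = 3), a skin level 5.31-fold lower and a flesh level 3.74-fold higher in MT. Skin exceeded flesh 2.98-fold in WT, and flesh exceeded skin 6.67-fold in MT.

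Ibat.Brg_v3.06AG013080 showed the same layout at a lower level and came second by that ranking. Its skin level was 23.0, 20.05 and 22.7 CPM in WT against 6.25, 5.26 and 6.46 CPM in MT, and its flesh level was 7.33, 8.04 and 5.45 CPM in WT against 25.7, 21.4 and 25.7 CPM in MT. The skin level was 3.65-fold lower and the flesh level 3.5-fold higher in MT, so WT skin and MT flesh had similar levels, with means of 21.9 ± 1.61 and 24.3 ± 2.52 CPM (SD, n = 3). Both genes carry the number 06 in their identifiers.

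Another member of number 06, Ibat.Brg_v3.06AG018420, had the largest flesh difference of all members. Its flesh level was 1.4, 0.986 and 2.08 CPM in WT and 20.2, 15.1 and 23.4 CPM in MT, means of 1.49 ± 0.554 and 19.6 ± 4.21 CPM and 13.1-fold higher in MT (SD, n = 3). In skin it stood at 5.62, 2.79 and 3.118 CPM in WT and at 2.15, 0.993 and 1.41 CPM in MT, 2.53-fold lower. This skin difference did not pass edgeR's test as fitted here, but passed without the filter on low counts (log2 difference -1.28) and by DESeq2 (-1.26). The skin groups did not overlap, but the highest MT library lay close below the lowest WT library. It was expressed at a few CPM in 3 of the groups, and MT flesh stood apart from them.

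**Figure D3:**
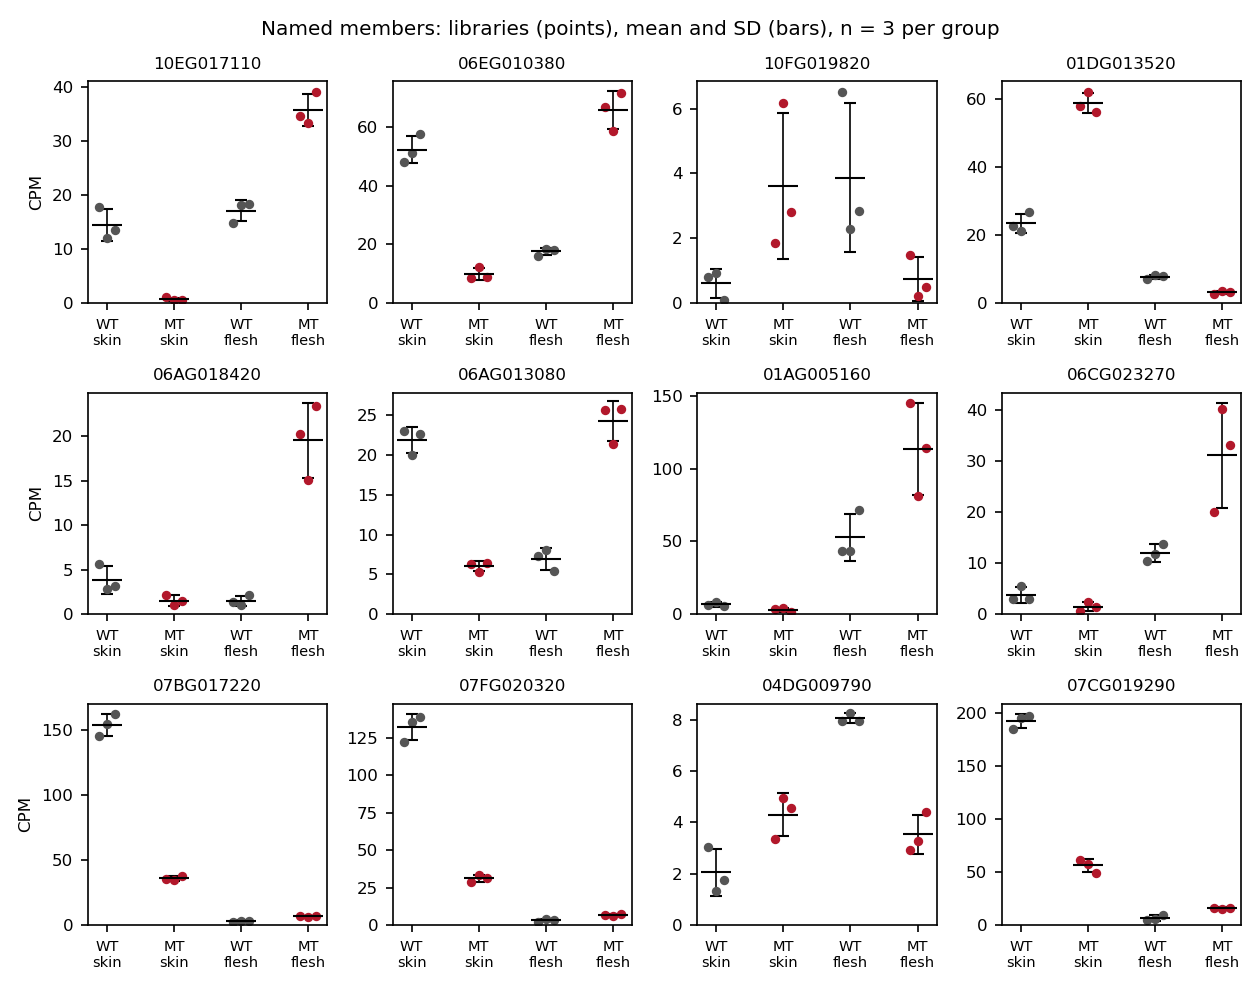
CPM of the 12 members named in the text, one panel each, with a point per library and a line at the mean of each of the 4 groups. The panel of Ibat.Brg_v3.06EG010380 shows WT skin and MT flesh high and MT skin and WT flesh low, with means of 52.4, 65.9, 9.88 and 17.6 CPM.

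The largest skin difference was that of Ibat.Brg_v3.10EG017110. Its skin level was 17.9, 12.1 and 13.6 CPM in WT and 1.03, 0.596 and 0.470 CPM in MT, which rest on 11, 6 and 4 counts. Its flesh level was 14.8, 18.1 and 18.4 CPM in WT and 34.7, 33.5 and 39.1 CPM in MT. In WT the libraries of skin and flesh overlapped, and in MT the transcript was close to the floor in skin while present in flesh. The mean skin level fell from 14.5 ± 2.97 to 0.697 ± 0.292 CPM, 20.8-fold, and the mean flesh level rose from 17.1 ± 1.99 to 35.8 ± 2.98 CPM, 2.09-fold (SD, n = 3).

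Ibat.Brg_v3.07BG017220, Ibat.Brg_v3.07CG019290 and Ibat.Brg_v3.07FG020320 were skin transcripts in both lines and had like profiles. In skin, 07BG017220 stood at 146, 155 and 162 CPM in WT and at 35.1, 34.8 and 37.6 CPM in MT, and in flesh at 2.09, 3.35 and 3.26 CPM in WT and 7.28, 5.92 and 6.61 CPM in MT. In skin, 07CG019290 stood at 185, 195 and 197 CPM in WT and at 61.0, 57.9 and 49.4 CPM in MT, and in flesh at 4.54, 6.07 and 9.83 CPM in WT and 16.2, 15.0 and 16.2 CPM in MT. In skin, 07FG020320 stood at 122, 135 and 139 CPM in WT and at 28.5, 33.3 and 31.6 CPM in MT, and in flesh at 2.33, 3.99 and 3.47 CPM in WT and 6.95, 5.75 and 7.05 CPM in MT. All 3 kept skin above flesh in every library of both lines, while the gap between the tissues narrowed in MT. The mean skin level exceeded the mean flesh level 53.1-fold in WT and 5.43-fold in MT for 07BG017220, 28.2-fold and 3.55-fold for 07CG019290, and 40.4-fold and 4.73-fold for 07FG020320. Their identifiers differ in the letter and have running numbers near each other. Whether they are copies of a single gene cannot be told from the identifiers.

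These 3 genes belong to a larger set that is set apart by tissue. Genes with a skin level at least 8-fold above the flesh level in the tissue test, averaged over the lines, numbered 8123. They held 27.3% ± 0.161 of the counts in WT skin and 26.6% ± 0.127 in MT skin, but 0.971% ± 0.0362 in WT flesh and 1.95% ± 0.0617 in MT flesh (SD, n = 3). Their summed share was thus slightly lower in MT skin and higher in every MT flesh library than in any WT flesh library. The median log2 ratio of MT to WT in flesh over the 8123 genes was 0, with quartiles of -0.22 and 1.08. How many of these genes had few or no counts in flesh was not examined. The median therefore does not tell whether the typical gene of the set shared the higher flesh level. The 5292 genes at least 8-fold higher in flesh, 01AG005160 among them, held 0.450% of the counts in WT skin and 0.389% in MT skin. The part of the skin-dominant set in the higher flesh levels of 07BG017220, 07CG019290 and 07FG020320 was not tested. The other member in this set, Ibat.Brg_v3.01DG013520, was lower in MT flesh.

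At the other end, Ibat.Brg_v3.01AG005160 and Ibat.Brg_v3.06CG023270 were flesh transcripts in both lines. The flesh level of 01AG005160 was 43.7, 43.6 and 71.5 CPM in WT and 145, 81.6 and 114 CPM in MT, and its skin level was 5.92, 8.43 and 5.51 CPM in WT and 3.17, 4.07 and 1.53 CPM in MT. The lowest MT flesh library was just above the highest WT flesh library, and flesh was above skin throughout. Flesh exceeded skin 7.995-fold in WT and 38.9-fold in MT. Without MT flesh replicate 1 the flesh difference of 01AG005160, a log2 difference of 1.21 in the edgeR fit of all libraries, was 1.00 and no longer passed the test.

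The flesh level of 06CG023270 was 10.4, 11.7 and 13.8 CPM in WT and 20.03, 40.3 and 33.1 CPM in MT, and its skin level was 2.86, 5.51 and 2.91 CPM in WT and 0.560, 2.38 and 1.41 CPM in MT. The MT flesh libraries spread widely, from 20.03 to 40.3 CPM. Flesh exceeded skin 3.18-fold in WT and 21.5-fold in MT. The flesh difference, a log2 difference of 1.48, no longer passed the test without WT flesh replicate 1 (1.39), without WT flesh replicate 2 (1.48), without MT flesh replicate 2 (1.26) or without MT flesh replicate 3 (1.43). The skin difference of neither gene passed edgeR's test as fitted here. Without the filter on low counts both passed, at log2 differences of -1.14 for 01AG005160 and -1.37 for 06CG023270, and both passed by DESeq2 (-1.11 and -1.34). That of 06CG023270 also passed without MT skin replicate 2 (-1.97).

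In the class of 5, Ibat.Brg_v3.01DG013520 had the highest level per length, with replicates close to each other. Its skin level was 22.5, 21.2 and 26.6 CPM in WT and 58.0, 62.1 and 56.2 CPM in MT, and its flesh level was 6.98, 8.19 and 7.96 CPM in WT and 2.70, 3.51 and 3.21 CPM in MT. Skin was above flesh in every library of both lines, and here the gap between the tissues widened in MT, from 3.04-fold to 18.7-fold. The mean skin level rose from 23.4 ± 2.84 to 58.7 ± 3.01 CPM, 2.51-fold, and the mean flesh level fell from 7.71 ± 0.642 to 3.14 ± 0.405 CPM (SD, n = 3). It was the single member of its class that passed edgeR's test in both tissues.

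Ibat.Brg_v3.10FG019820 had the largest folds of that class, on few counts. It had 8, 14 and 1 counts in the WT skin libraries, 20, 62 and 24 in MT skin, 112, 46 and 53 in WT flesh and 27, 4 and 8 in MT flesh. The skin means were 0.608 ± 0.442 CPM in WT and 3.61 ± 2.25 CPM in MT, 5.95-fold apart, and the flesh means were 3.87 ± 2.31 CPM in WT and 0.737 ± 0.667 CPM in MT, 5.25-fold apart (SD, n = 3). The groups did not overlap in either tissue, but the SD was close to the mean in MT flesh, and neither difference passed edgeR's test as fitted here. Both passed without the filter on low counts (log2 differences of 2.55 in skin and -2.26 in flesh), by DESeq2 (2.60 and -2.28) and without MT flesh replicate 1 (2.55 and -3.29). With only the 6 skin libraries the skin difference passed as well (2.53). Flesh was above skin in every WT library and skin above flesh in every MT library.

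Ibat.Brg_v3.04DG009790 stood at 3.06, 1.33 and 1.77 CPM in WT skin, 3.36, 4.96 and 4.58 CPM in MT skin, 7.97, 8.29 and 7.96 CPM in WT flesh, and 2.92, 3.29 and 4.40 CPM in MT flesh. Its flesh was above its skin in WT, while the tissues overlapped in MT. The skin means were 2.10-fold apart and the flesh means 2.28-fold apart, and neither passed edgeR's test as fitted here. Both passed by DESeq2 (log2 differences of 1.15 in skin and -1.09 in flesh) and without WT skin replicate 1 (1.52 and -1.09). The flesh difference also passed with library totals alone (-1.19), with only the 6 flesh libraries (-1.09) and without WT skin replicate 2 (-1.09). The remaining pair of this class carry the numbers 09 and 14 and have group means under 10 CPM. In the member of number 14, the WT flesh libraries were 2.91, 3.26 and 10.1 CPM against 2.32, 2.63 and 2.77 CPM in MT, so its flesh difference came mostly from WT flesh replicate 3, and it was the single member whose difference between skin and flesh effects did not pass.

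The other 11 members of the class of 20 had group means 2.00 to 3.37-fold apart in skin and 2.01 to 3.34-fold apart in flesh. Of these, 7 were called in both tissues. The member on block 02A was a flesh transcript in both lines, with 22.3, 22.3 and 22.9 CPM in WT flesh and 53.1, 57.6 and 54.5 CPM in MT flesh beside 7.60, 7.57 and 6.65 CPM in WT skin and 4.01, 3.38 and 1.29 CPM in MT skin. One member on block 07A had skin levels of 21.3, 16.7 and 21.4 CPM in WT against 7.65, 6.35 and 8.11 CPM in MT, and flesh levels of 4.48, 4.98 and 5.29 CPM in WT against 13.6, 13.9 and 13.8 CPM in MT. Like 06EG010380 and 06AG013080, it was higher in skin in WT and higher in flesh in MT, with no overlap in either line.

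The order of the tissues was a description that the level conditions did not fix. In 10 of the 25 members the tissue order was inverted between the lines with no overlap in either line, 8 of them skin above flesh in WT and flesh above skin in MT, and 2 the other way round. Among the genes that met the level conditions 1.49% were inverted. The rule required opposite differences between the lines, which moves the tissues against each other, so no test is attached to this share. In 9 members, 4 of them flesh transcripts and 5 of them skin transcripts, the order was the same in both lines, and in 6 the tissues overlapped in at least 1 line. These were 36% of the members in the same order against 52.6% of the genes that met the level conditions, of which 13937 of 30375 overlapped in at least 1 line. The largest fold between tissues after inversion was that of 06AG018420, which went from skin 2.58-fold above flesh in WT to flesh 12.9-fold above skin in MT.

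**Figure D4:**
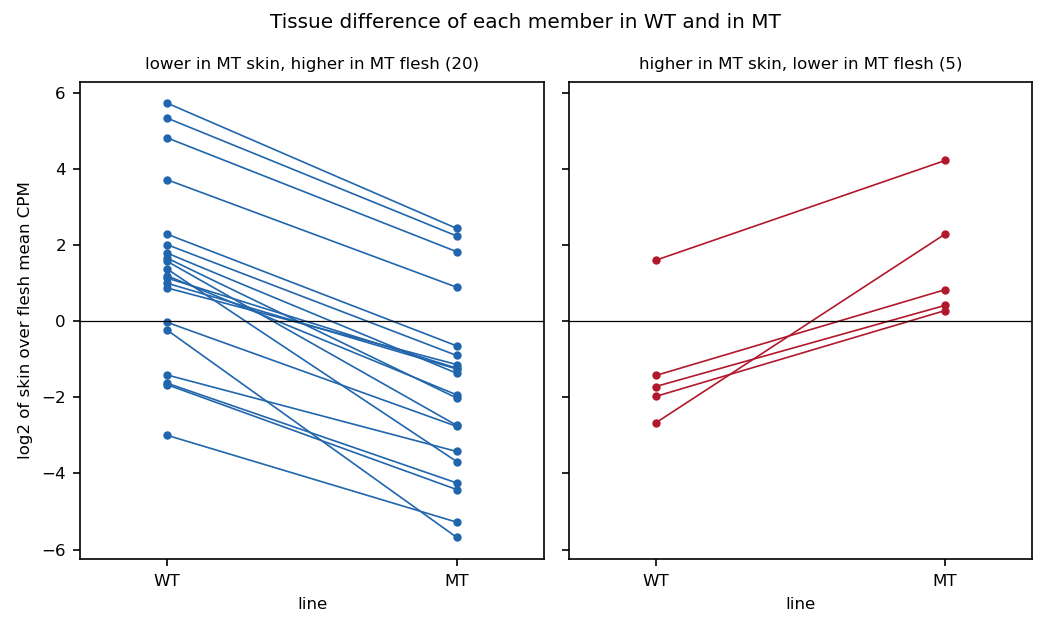
Log2 ratio of skin to flesh mean CPM in WT and in MT for each of the 25 members, the points of a member joined by a line, with 0 marking equal levels. The lines of 10 members, among them Ibat.Brg_v3.06EG010380 and Ibat.Brg_v3.10FG019820, cross from one side of 0 to the other without overlap of the libraries in either line.

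The level of skin against flesh, averaged over both lines, was the contrast that the rule did not use, although a large difference in one line moves this average. By this test 8 of the 25 members were higher in skin, against 30.6% of all tested genes, and 9 were higher in flesh, against 31% of all tested genes. Among the tested genes that met the level conditions the shares were 31.9% and 33.9%, so the members were spread over the tissues much as other genes were, and this is not a result about the members. The other 8 did not pass. With library totals alone, which moved the median of all tested genes to -0.36 on the log2 scale and the calls from 24576 higher in skin and 24874 higher in flesh to 19969 and 32165, 7 members were higher in skin and 9 higher in flesh. Taking the members farthest towards skin, the log2 difference between skin and flesh in edgeR's quasi-likelihood test was 4.38 for 07BG017220 (SE 0.10, Benjamini-Hochberg adjusted p = 2.3e-14) and 4.09 for 07FG020320 (SE 0.11, adjusted p = 1.6e-13), higher in skin in all 6 skin libraries than in any flesh library. Farthest towards flesh were 01AG005160 at -3.80 (SE 0.22, edgeR adjusted p = 1.2e-09) and 06CG023270 at -2.72 (SE 0.27, adjusted p = 6.6e-07). For 06AG013080 the log2 difference was 0.13 (SE 0.12, edgeR adjusted p = 0.37), since its skin excess in WT and its flesh excess in MT nearly cancelled.

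Levels per kilobase of gene length, averaged over the 12 libraries, ran from 1.16 CPM per kb for 10FG019820 to 67.7 CPM per kb for 01AG005160. Next below came 07CG019290 at 61.1 CPM per kb, 01DG013520 at 47.0 and 07BG017220 at 41.9. The median of the members was 5.11 CPM per kb and that of the genes that met the level conditions was 6.35. The members' median length was 1293 bases against 1982 bases. The median coefficient of variation among replicates was 17.0% in WT skin, 21.9% in MT skin, 24.2% in WT flesh and 10.4% in MT flesh for the members, against 14.7%, 17.2%, 10.96% and 10.5% for the genes that met the level conditions.

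The identifiers carry a number, a letter and a running number, which may stand for chromosome, haplotype and order, though the deposited table gives no coordinates. Number 07 held 7 of the 25 members (28%), where it held 6.46% of the genes that met the level conditions, and number 06 held 5 (20%), where it held 6.86%. Numbers 04, 01, 02, 10, 14, 08 and 09 held the rest. Of the 7 members of number 07, 6 had running numbers between 17100 and 20320, on letters A, B, C, D and F, and these 6 include 07BG017220, 07CG019290 and 07FG020320. Copies of 1 gene under several letters would enter such a count more than once, so no test was made of it. Members sharing a number and letter had 87 to 1581 other identifiers between them.

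The genes next to each member in identifier order were examined as well, 5 tested genes on each side, 250 in all, none of them a member. Of these, 4% were called higher and 2.8% lower in MT skin, and 5.6% were called higher and 2% lower in MT flesh, against 3.64%, 3.21%, 3.75% and 1.21% of all tested genes. Aligned to the direction of the member beside them, their median log2 difference was 0.03 in skin and 0.06 in flesh. Of the 250, 2 (0.8%) were called in both tissues in opposite directions, against 0.407% of all tested genes, both in the directions of their member, and both were the very next identifier to it. Near Ibat.Brg_v3.06AG018420, a member higher in MT flesh, Ibat.Brg_v3.06AG018490 and Ibat.Brg_v3.06AG018500 were called higher in MT flesh, at log2 differences of 7.01 and 1.48. Neither met the conditions on level or was called in skin. Another neighbour of this member, Ibat.Brg_v3.06AG018380, was called lower in MT flesh (-0.41). The neighbours named in this paragraph were picked by their calls in edgeR's test, after the values were seen. Their adjusted p-values therefore add no support. Ibat.Brg_v3.01AG005170, next to 01AG005160, had means of 117 ± 13.9 CPM in WT skin, 58.0 ± 8.09 in MT skin, 620 ± 20.3 in WT flesh and 900 ± 34.0 in MT flesh (SD, n = 3). Ibat.Brg_v3.01DG013530, next to 01DG013520, had means of 34.6 ± 2.09 CPM in WT skin, 57.2 ± 6.24 in MT skin, 10.4 ± 1.59 in WT flesh and 3.41 ± 0.335 in MT flesh (SD, n = 3). In edgeR's test 01AG005170 had log2 differences of -0.98 in skin (adjusted p = 2.6e-05) and 0.64 in flesh (adjusted p = 0.00041). For 01DG013530, edgeR's log2 differences were 0.77 in skin (adjusted p = 0.0013) and -1.50 in flesh (adjusted p = 7.9e-06). Whether reads were shared between these neighbours was not tested.

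**Figure D5:**
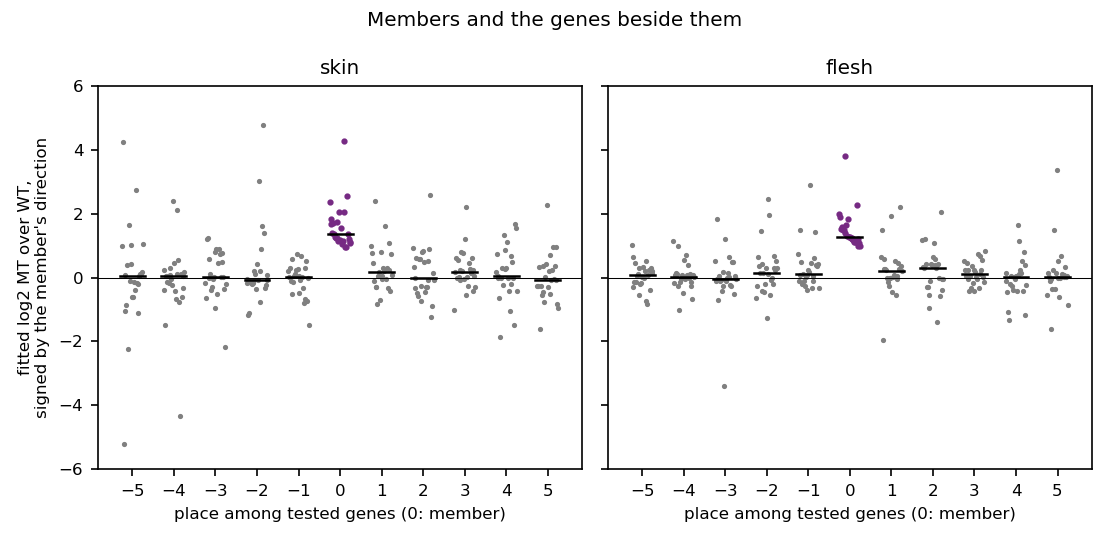
Log2 ratio of MT to WT from the edgeR fit for each member and its 5 nearest tested genes on either side in identifier order (x axis, places from the member), aligned so that the member's own direction is positive, in skin and in flesh, with 1 value outside the axes not drawn. The value not drawn is 7.01, for Ibat.Brg_v3.06AG018490 in flesh, 4 places from the member Ibat.Brg_v3.06AG018420. The members, at place 0, all lie above 0 because of this alignment, and the medians of their neighbours lie near 0 (0.03 in skin and 0.06 in flesh).

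How firmly a gene belonged among the members varied. When each of the 12 libraries was left out in turn, 6 members were found in all 12 sets, 6 in 11 of them, and the other 13 in 10 or fewer, with a lowest value of 6. The sign of a member's difference could not invert in these sets, because the rule had required groups that do not overlap. With TMM scaling in place of library totals the rule took 21 genes, 19 of them among the 25. Taking instead edgeR's calls in both tissues, at least 2-fold in opposite directions outside number 12, gave 30 genes. Only 13 of these were among the 25.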

How the data were processed

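The deposited table, made by the authors, holds raw counts per gene and library for 225111 genes and 12 libraries, with a gene length. Per the submitters' processing notes, the tools were HISAT2 2.0.5, featureCounts and DESeq2 1.40.2, without their roles. What genome build, annotation and strand setting the authors used, and how they counted multiply matching reads, is not given in the sources used here. Lengths divisible by 3 made up 71.5% of all genes and were found in 16 of the 25 members. Many lengths may thus be coding lengths, but some lengths divide by 3 by chance, and which are coding is not given. Groups and replicate numbers were taken from the sample titles, and no column was left unused. A table of annotated sweetpotato genes of another assembly (IBA_r1.0) carried 0 of these identifiers, so no gene names were used.

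CPM was computed from the deposited counts and library totals of 8507461 to 20276417, and the members were found on it. For the tests, genes were kept by filterByExpr (minimum count 10), scaled by TMM and fitted over the 4 groups with edgeR 4.0.16 in R 4.3.3, with the quasi-likelihood test and Benjamini-Hochberg adjustment over 80351 genes at 0.05. The kept genes held 99.0% to 99.3% of each library's counts. Contrasts compared the lines within skin, within flesh and between these tissues, and skin with flesh averaged over the lines. Each SE was approximated from the log2 difference and edgeR's F statistic, as size over root F. The fit was tried on simulated counts with the same spread for every gene and no difference between tissues beyond the added changes. Such counts are simpler than these data, so that trial does not vouch for the calls made here. Alternatives were DESeq2 1.42.0, library totals, other filters, the replicate number as a block and leaving out each library.

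The members, lists and comparisons were chosen with earlier results of these data known. Named genes were the members with the largest skin and flesh differences and the extremes of skin against flesh, at most 2 in each direction. These were taken over all members. Within each class, the 2 members with the largest smaller-of-both difference and the 2 with the highest level per length were named too. Rankings by line difference used only members with at least 10 counts summed over the lower group. The comparison with neighbouring identifiers was chosen after seeing the data. The CPM worth of 3 counts covers counting error only.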

Additional observations from a re-analysis of the deposited data

Results flagged for a closer look

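In each of the 12 members named in the text, the line difference in skin and that in flesh differed by edgeR's test of the difference itself. The values are the log2 difference between MT and WT in skin minus that in flesh, from the edgeR fit. Among the members lower in MT skin they were -5.45 for Ibat.Brg_v3.10EG017110, -5.08 for Ibat.Brg_v3.06AG018420, -4.37 for Ibat.Brg_v3.06EG010380, -3.73 for Ibat.Brg_v3.06AG013080, -3.34 for Ibat.Brg_v3.07BG017220 and -3.14 for Ibat.Brg_v3.07FG020320. In the same class, Ibat.Brg_v3.07CG019290 stood at -3.04, Ibat.Brg_v3.06CG023270 at -2.85 and Ibat.Brg_v3.01AG005160 at -2.34. Among the members higher in MT skin they were 4.82 for Ibat.Brg_v3.10FG019820, 2.57 for Ibat.Brg_v3.01DG013520 and 2.21 for Ibat.Brg_v3.04DG009790. The members were chosen for this very difference, so the values describe them and add no support. Groups of 3 libraries were too small to test for a library far from the others, so such libraries were only described.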

How the results depend on the processing

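The number of members depended on the limits of the rule. It was 180 with a fold limit of 1.5, 3 with a limit of 3, 73 with 1 CPM in the higher group, 5 with 10 CPM, and 121 without the overlap condition, against 25, and it ran from 26 to 33 when a library was left out. Over all tested genes, DESeq2 called 8482 genes in skin, 6030 in flesh and 5822 for the difference between them, against 5502, 3985 and 3653 by edgeR. Leaving out a library gave 3583 to 5105 calls in skin, the lowest without WT skin replicate 2. With the replicate number as a replicate block, edgeR called 4326 genes in skin, 3420 in flesh, 2950 for the difference and 48334 for tissue, and with a replicate block within each line 2336 for the difference. Under the replicate block the skin differences of 06AG018420 (-1.29) and 06CG023270 (-1.38) newly passed, and no other call on a named gene changed. Deviations of same-numbered libraries correlated between -0.02 and 0.01 over 18 pairs, so the numbers were not taken to pair the samples. For the single genes named by the rule, 476 values under alternatives kept direction and side of the threshold, 23 newly passed, 5 no longer passed, and 0 reversed. These genes were chosen by their differences in the same libraries, so the kept directions describe them and add no support. The counts of members higher in skin or in flesh stayed between 7 and 9. Low counts limit the members under a few CPM.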
